A study of Mus musculus with 4 samples.

Results

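The array labelled Hmhi-Miz1 kd + EGF was set against the array labelled Hmhi, in cells starved without EGF. Both arrays measured cultures of melan-a cells, an immortal line of pigmented mouse melanocytes. The comparison took 2 of the 4 arrays of the series. Of 18193 genes on the arrays with a probe set assigned to 1 gene symbol, 11455 passed a filter on dim signals and entered it. There was 1 array per condition, so the spread between cultures could not be measured and neither tests nor p-values are given. Every difference below is a log2 signal of the array labelled Miz1 kd minus that of the starved array, where 1 is a 2-fold difference.

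The 4 cultures were Hmhi-Miz1 kd cells with EGF, Hmhi cells with EGF, Hmhi-MYC-TA cells with EGF and Hmhi cells without EGF, each kept for 14 days. EGF, the epidermal growth factor, was given at 100 ng/ml. All 4 cultures were moved from a growth medium with TPA and cholera toxin to one with dialyzed serum, for which the labels list neither agent. The labels name the knockdown construct pS-Miz1 and leave Hmhi and MYC-TA unexplained, and they do not say whether a culture was 1 clone or several. The series title names Myc, Miz-1, senescence of melanocytes and cystathionase. The compared cultures differed both in EGF and in the construct, so the effects of growth factor and knockdown cannot be told apart. The 2 EGF arrays outside the comparison, labelled Hmhi + EGF and Hmhi-MYC-TA + EGF, are given beside the named genes as levels.

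EGF binds a receptor tyrosine kinase that activates the RAS and ERK kinases, which act on transcription factors of the ETS and AP-1 families and on feedback inhibitors of their own pathway. Miz-1 is a zinc finger transcription factor, the product of Zbtb17, that activates genes of cell cycle arrest and adhesion. MYC binds Miz-1 and turns it into a repressor of such genes.

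Zbtb17 did not bear out the knockdown label. Its brighter probe set read 9.08 in the array labelled Miz1 kd, 8.72 in Hmhi EGF, 8.71 in MYC-TA EGF and 8.73 in Hmhi starved. On this set the array labelled Miz1 kd was the highest of the 4, by 0.34 above the starved array, which is less than the technical SD between probe sets of a gene, 0.42. The dimmer set read 6.72 in the array labelled Miz1 kd, 6.51 in Hmhi EGF, 6.78 in MYC-TA EGF and 6.50 in Hmhi starved, so neither set was lower in the array labelled Miz1 kd than in the starved array. Miz-1 protein was not measured on these arrays, and directions below belong to the array as labelled. The single probe set of Myc read 10.79 in the array labelled Miz1 kd, 10.60 in Hmhi EGF, 9.78 in MYC-TA EGF and 10.64 in Hmhi starved, a difference of 0.16. Cth, which encodes cystathionase, read 6.20 in the array labelled Miz1 kd, 5.18 in Hmhi EGF, 8.31 in MYC-TA EGF and 4.34 in Hmhi starved. Its 2 levels in the comparison were below the array medians of 6.661 and 6.659, so it did not pass the filter and its difference of 1.86 is limited by background.

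Melanocyte markers were present in both cultures, with 6 of 8 above the array median in each. Their levels ran from 5.08 to 13.80 in the array labelled Miz1 kd and from 4.62 to 14.09 in Hmhi starved. Sox10, Tyrp1, Mlana, Mitf, Dct and Pmel were above the median in both arrays, while Tyr, the rate-limiting enzyme of melanin synthesis, read 5.08 in the array labelled Miz1 kd, against 4.62 in Hmhi starved. Ednrb, an endothelin receptor of melanoblasts, read 5.20 and 5.13 in the same order of arrays. Markers of other cell types were mostly dim. The summed signal was 10.38 in the array labelled Miz1 kd, against 11.75 in Hmhi starved for 8 fibroblast markers, 9.20 and 9.15 for 7 keratinocyte markers, 12.09 and 12.19 for 8 macrophage and leukocyte markers, and 8.88 and 8.60 for 8 endothelial markers. Col1a1, Col3a1, Lum, Thy1 and Fap were below the array median in both arrays, as were Ptprc, Adgre1, Cd14, Itgam and Tyrobp. Lyz2, lysozyme, carried most of the macrophage sum, with 11.89 in the array labelled Miz1 kd, against 11.87 in Hmhi starved. Dcn, the brightest fibroblast marker, read 9.45 in the array labelled Miz1 kd, against 11.50 in Hmhi starved, and Col1a2 read 6.60 and 6.97. Pdgfra, a growth factor receptor of fibroblasts, went the other way, with 8.24 in the array labelled Miz1 kd, against 7.40 in Hmhi starved. Among endothelial markers, Vwf read 6.93 in the array labelled Miz1 kd, against 5.13 in Hmhi starved. In RNA of whole cultures, fewer cells of a type and less RNA per cell cannot be told apart.

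The 2 arrays correlated at r = 0.968 across all probe sets. In the array labelled Miz1 kd 853 of 11455 genes, or 7.45%, were at least 2-fold higher, and 850, or 7.42%, at least 2-fold lower. At least 4-fold differences were counted in 156 higher and 136 lower genes, and at least 8-fold differences in 25 higher and 43 lower genes. The median difference was 0.02, and the 5th and 95th percentiles were -1.18 and 1.24. The only error that could be measured was technical, the SD of 0.42 between probe sets of the same gene. Among 761 genes past 2-fold that had several probe sets past the filter, 695 (91.3%) had the same sign in all of them, and 351 (46.1%) were past 2-fold in all of them. Of 4554 genes under 2-fold with several sets, 2969 (65.2%) had the same sign in all. Background limits the size of a fold where the dimmer level lies under the array median, which held for 149 of the higher genes in the starved array and for 182 of the lower genes in the array labelled Miz1 kd. Among the list members given below, Slc7a11, Mmp11, Tgfbi and Lcn2 were of the 149. Ankrd1, Ccn2, Egr2, Fads2, Igfbp2 and Masp1 were of the 182.

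**Figure D1:**
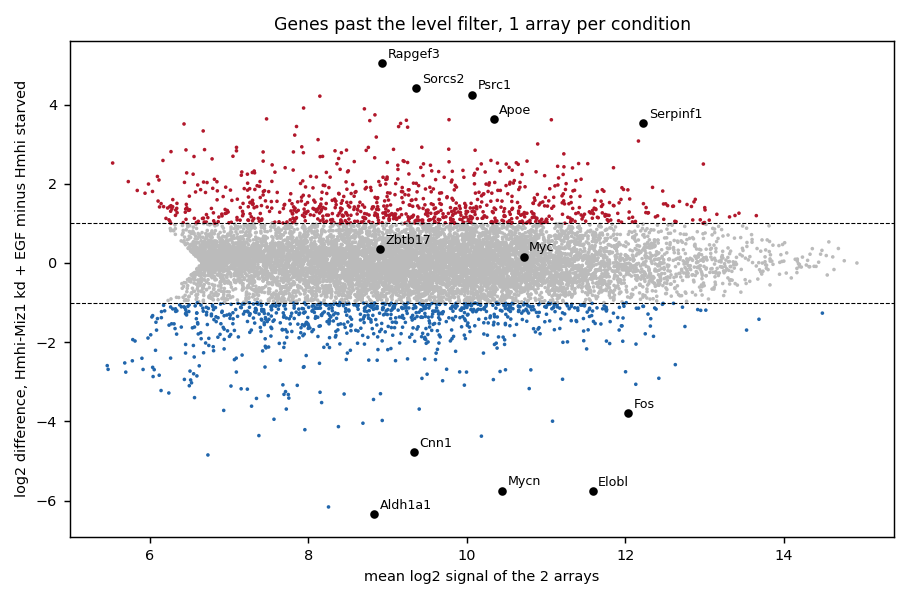
Difference in log2 signal between the array labelled Hmhi-Miz1 kd + EGF and the array labelled Hmhi starved (vertical axis) against the mean log2 signal of both (horizontal axis), 1 point for each of 11455 genes. Red points lie at or above 1 and blue points at or below -1 (dashed lines); Zbtb17 and Myc sit between the lines, and Rapgef3 and Aldh1a1 mark the ends.

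Rapgef3, which encodes a cAMP-activated exchange factor for RAP proteins, had the largest positive difference. It read 11.46 in the array labelled Miz1 kd, 11.15 in Hmhi EGF, 9.73 in MYC-TA EGF and 6.41 in Hmhi starved, so it was 33.0-fold higher than in the starved array. Its 5 probe sets were all higher, by 1.35 to 5.04, and the starved array was the lowest of the 4. Sorcs2, a sorting receptor of the sortilin family, read 11.57 in the array labelled Miz1 kd, 11.81 in Hmhi EGF, 10.54 in MYC-TA EGF and 7.15 in Hmhi starved. Psrc1, which encodes a protein of spindle microtubules, read 12.19, 11.70, 10.98 and 7.94 in the same order. For both genes each of the 3 EGF arrays was at least 3 log2 units above the starved array. The same held for Sned1, Adam12, Ltbp1, Galnt3 and Adgra2, with differences from 3.43 to 4.21. The EGF arrays were not all alike, since MYC-TA EGF minus Hmhi EGF was -1.27 for Sorcs2 and -1.15 for Sned1.

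Apoe, the apolipoprotein E gene, was arranged otherwise. It read 12.16 in the array labelled Miz1 kd, 12.05 in Hmhi EGF, 8.13 in MYC-TA EGF and 8.52 in Hmhi starved, so the MYC-TA array lay with the starved one. Islr, a secreted protein with an immunoglobulin domain, read 10.93 in the array labelled Miz1 kd, 11.10 in Hmhi EGF, 8.37 in MYC-TA EGF and 7.40 in Hmhi starved, likewise closer to the starved level in MYC-TA. Tcim, a small regulator of transcription, read 10.65, 8.18, 9.35 and 6.76 in that order, and was the one gene among the 20 largest positive differences that stood over 1 log2 unit above both other EGF arrays. Ncam1, a cell adhesion molecule, was higher by 3.62, Serpinf1, which encodes the secreted pigment epithelium-derived factor, by 3.53, and Id4, an inhibitor of helix-loop-helix factors, by 3.45. Adamts9, Crispld2, Steap1, Tlr1, Mcpt8 and Spsb4 completed the 20, with differences between 3.33 and 3.62. Mcpt8 belongs to a family of proteases with similar sequences, so its single probe set is uncertain. Rapgef3, Sned1, Adam12, Galnt3, Tlr1, Mcpt8 and Spsb4 read under the array median in Hmhi starved, at 4.67 to 6.41.

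Aldh1a1, an enzyme that makes retinoic acid, had the largest negative difference. It read 5.66 in the array labelled Miz1 kd, 8.83 in Hmhi EGF, 7.43 in MYC-TA EGF and 12.00 in Hmhi starved, which is 81.0-fold lower than in the starved array. The array labelled Miz1 kd was the lowest of the 4 and under its median, so the fold is limited by background. Elobl, an elongin B-like gene, read 8.71 in the array labelled Miz1 kd, 6.76 in Hmhi EGF, 7.14 in MYC-TA EGF and 14.47 in Hmhi starved, and was thus above the other EGF arrays. Cnn1, which encodes the actin-binding protein calponin, read 6.95, 7.93, 9.57 and 11.72 in that order. Slit2, a secreted guidance cue, read 5.20 in the array labelled Miz1 kd, 7.93 in Hmhi EGF, 9.24 in MYC-TA EGF and 9.55 in Hmhi starved. In Cnn1 and Slit2 the 4 levels had the same order, with the array labelled Miz1 kd lowest and MYC-TA nearest to the starved array.

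That order also held for Kcna1, a potassium channel, Pkia, an inhibitor of protein kinase A, Sorbs2, an adaptor of the actin cytoskeleton, Id3, Jam2, Glis3 and Gnai1, an inhibitory G protein subunit. Their differences lay between -4.37 and -3.45. Panx3, Scn7a, Crygs, Fgf13, Scel and Wt1 had a different arrangement, with the 3 EGF arrays within 1 log2 unit of each other and at least 2 below the starved one. Ifit1bl1, of an interferon-induced family whose probes can be shared, differed by -3.42. Aldh1a1, Panx3, Slit2, Pkia, Sorbs2, Crygs, Nfe2l3, Scel, Glis3, Wt1 and Ifit1bl1 were dim in the array labelled Miz1 kd, with levels under its median. Nfe2l3, a bZIP transcription factor, read 5.07 in the array labelled Miz1 kd, 8.63 in Hmhi EGF, 10.01 in MYC-TA EGF and 8.79 in Hmhi starved, so it was low in the array labelled Miz1 kd only. Mycn, a MYC family member, was discordant between its sets. The brightest read 7.57 in the array labelled Miz1 kd, 13.53 in Hmhi EGF, 13.68 in MYC-TA EGF and 13.32 in Hmhi starved, a difference of -5.75, while a second set past the filter was higher by 1.28. Which set reads the transcript was not tested.

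**Figure D2:**
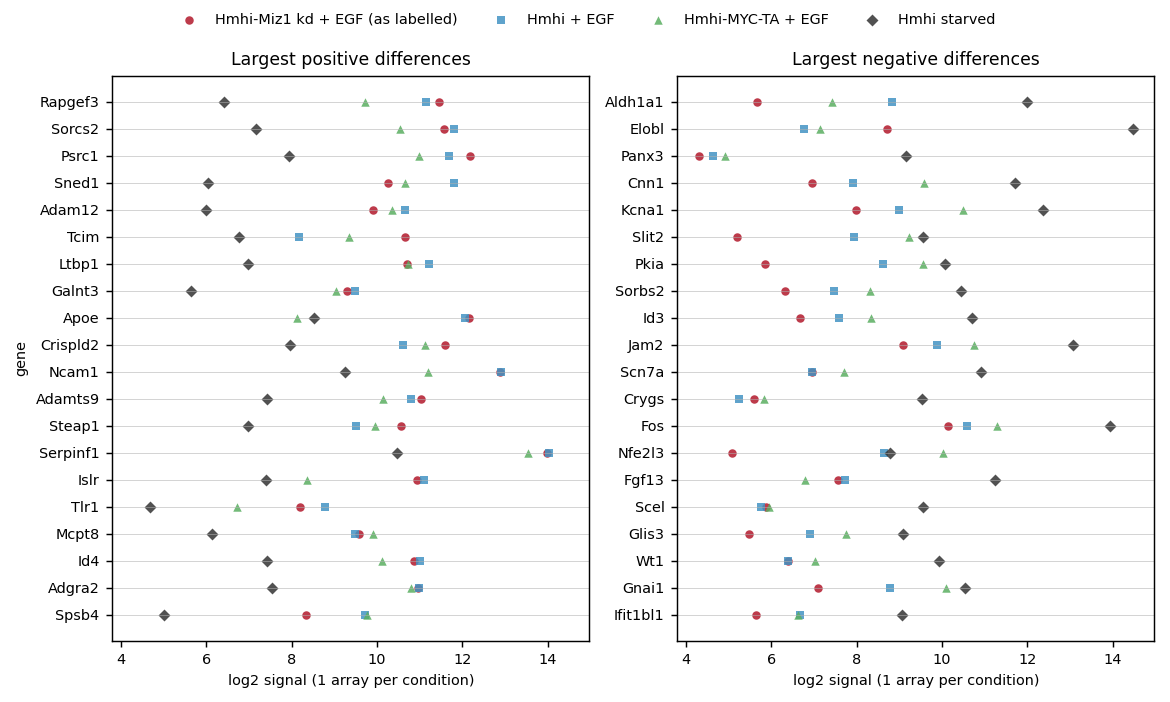
Log2 signal on each of the 4 arrays for the 20 genes with the largest positive (left) and the 20 with the largest negative difference (right) between the array labelled Hmhi-Miz1 kd + EGF (red circles) and Hmhi starved (dark diamonds), with Hmhi + EGF (blue squares) and Hmhi-MYC-TA + EGF (green triangles). Each gene is its brightest probe set with 1 array per condition; the starved array is lowest in the rows on the left, apart from Apoe, where the MYC-TA array lies below it.

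The 35 gene lists were read by how many members were at least 2-fold apart and by their median, against 7.45% higher, 7.42% lower and a median of 0.02 over all genes. Medians of 9 lists, each within 0.241 of 0, changed sign under at least 1 other setting and have no direction here, namely those of collagens, complement, genes repressed with Miz-1, melanosome, neural crest, retinoid, ribosome biogenesis, interferon and WNT genes. ERK feedback genes and ETV factors had a median of 0.92, the highest of the lists except under the stricter level filter, where it was 0.597 and those of apolipoproteins (1.306), chemokine and TNF genes (0.994) and mitosis (0.924) were among the higher ones. Of its members, 9 of 18 were at least 2-fold higher and 1 lower. Etv5, an ETS family factor downstream of ERK, read 11.89 in the array labelled Miz1 kd, 12.51 in Hmhi EGF, 12.11 in MYC-TA EGF and 9.40 in Hmhi starved. Dusp6, a phosphatase of ERK, read 12.68, 12.73, 12.46 and 11.16 in the same order. The 3 EGF arrays lay within 1 log2 unit of each other for both genes, above the starved array. Etv4 was higher by 2.28, Spry4, an inhibitor of receptor kinase signalling, by 2.02, Fosl1, an AP-1 subunit, by 1.89, and Dusp4 by 1.56. Dusp1, a phosphatase of p38 and JNK that stress and serum induce, was the exception in that list. It read 10.60 in the array labelled Miz1 kd, 10.77 in Hmhi EGF, 10.89 in MYC-TA EGF and 13.66 in Hmhi starved, a difference of -3.06.

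Members of the EGF receptor family and its ligands showed a median of 0.43, and 3 of 12 members were at least 2-fold higher and 1 lower. Erbb3, a receptor for neuregulins, read 13.26 in the array labelled Miz1 kd, 13.11 in Hmhi EGF, 12.63 in MYC-TA EGF and 11.76 in Hmhi starved. Nrg1, a neuregulin, was higher by 1.5. Lrig1, which promotes degradation of EGF receptors, was higher by 1.99 on its brightest set and by 1.81 on the other set past the filter, while the remaining set, at 6.40 in the array labelled Miz1 kd against 6.50 in the starved one, was too dim to pass it. Tgfa, a ligand of the EGF receptor, differed by -1.08 on its brightest set and by 0.38 on the other.

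Immediate early genes, which cells switch on within minutes of a stimulus, had a median of -0.84. Of 22 members past the filter, 10 were at least 2-fold lower and 0 at least 2-fold higher. Fos, an AP-1 subunit, read 10.14 in the array labelled Miz1 kd, 10.58 in Hmhi EGF, 11.29 in MYC-TA EGF and 13.94 in Hmhi starved. Egr1, a zinc finger factor, read 10.97, 11.19, 12.07 and 13.88 in that order. Both were highest in the starved array by over 1 log2 unit and lowest in the array labelled Miz1 kd. Egr2 was lower by 3.27 on the log2 scale, with values of 6.51 in the array labelled Miz1 kd, against 9.78 in Hmhi starved. Zfp36, which encodes an RNA-decay factor, read 9.14 in the array labelled Miz1 kd, against 11.84 in Hmhi starved. Btg2, an antiproliferative gene, differed by -2.91, and Fosb, Klf2, Klf6, Ier2 and Fosl2 by -2.47 to -1.56. Fosl2 had a second set at -0.07.

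Serum response factor binds the CArG box, the letters CC, 6 bases of A or T, and GG, in promoters of many immediate early and contractile genes. It was found on either strand for 3 of the 19 immediate early genes with a RefSeq promoter window (15.8%), against 1.81% of all 27025 genes. A window runs from 250 bases before to 50 after a gene's start, and a gene with several windows counted once if any held the motif. The genes were 2 of 8 lower members that had a window, Egr2 and Zfp36, and 1 of 11 others, Srf. These are shown because both genes were among the most strongly lower, with the box in capitals, on the gene's strand of GRCm38.p6. The Egr2 window, 1 of 5 for this gene, is chr10:67537316-67537615 on the plus strand and the Zfp36 window chr7:28379179-28379478 on the minus strand.
Egr2: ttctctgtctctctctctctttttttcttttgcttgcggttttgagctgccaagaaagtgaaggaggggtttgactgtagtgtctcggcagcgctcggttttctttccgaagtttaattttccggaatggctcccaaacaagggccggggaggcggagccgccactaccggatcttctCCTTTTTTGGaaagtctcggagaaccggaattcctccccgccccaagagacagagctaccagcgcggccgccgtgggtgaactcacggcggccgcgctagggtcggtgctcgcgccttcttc
Zfp36: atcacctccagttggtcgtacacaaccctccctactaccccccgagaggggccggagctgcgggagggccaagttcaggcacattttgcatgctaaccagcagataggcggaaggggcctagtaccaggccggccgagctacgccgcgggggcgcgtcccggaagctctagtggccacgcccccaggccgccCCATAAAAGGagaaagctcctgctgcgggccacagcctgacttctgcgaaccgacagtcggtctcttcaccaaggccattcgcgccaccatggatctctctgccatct
The box began 72 bases before the Egr2 start and 58 before the Zfp36 start, and neither overlaps another motif searched here. A match of letters is a description and does not show binding.

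Genes of contraction and targets of SRF or YAP had a median of -0.87, close to that of the immediate early list, and 9 of 19 members were at least 2-fold lower and 1 higher. Which of the 2 lists had the lower median changed with the setting, since the immediate early list was lower with the stricter filter, with no filter and with the mean of all sets. Acta2, smooth muscle actin, read 8.86 in the array labelled Miz1 kd, 9.70 in Hmhi EGF, 11.80 in MYC-TA EGF and 11.81 in Hmhi starved. Ccn2, a matricellular protein that YAP activates, read 6.63, 9.41, 10.40 and 9.25 in that order. Acta2 was thus low in 2 of the EGF arrays, and Ccn2 in the array labelled Miz1 kd alone. Ankrd1 differed by -3.03, Ccn1 by -2.94 and Thbs1, thrombospondin, by -2.03, beside Cnn1 above. Actg2, the enteric smooth muscle actin, was the member that was higher, by 1.497. The CArG box was found for 2 of this list's 15 members with a window (13.3%), Cnn2 and Vcl, and for 0 of the 6 lower ones. Dcn, a fibroblast marker, read 9.45 in the array labelled Miz1 kd, 10.35 in Hmhi EGF, 11.56 in MYC-TA EGF and 11.50 in Hmhi starved, an arrangement like that of Acta2, and its part in the contractile result was not tested.

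S100 proteins and annexins, which bind calcium, showed a median of -0.82, and 4 of 12 members were at least 2-fold lower and 0 higher. S100a4 read 12.68 in the array labelled Miz1 kd, 11.87 in Hmhi EGF, 12.44 in MYC-TA EGF and 14.38 in Hmhi starved. S100a13, Anxa1 and Anxa7 differed by -1.37, -1.19 and -1.04, and another set of Anxa7 by 0.28. Among cytosolic heat shock proteins, with a median of -0.22, 1 of 13 was at least 2-fold lower. That was Cryab, a small chaperone, at 11.35 in the array labelled Miz1 kd, against 13.91 in Hmhi starved. Its other set past the filter differed by -3.15, and the remaining set, at 5.36 and 5.23 in the same order of arrays, was too dim to pass it.

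Genes of sterol and fatty acid synthesis showed a median of -0.49, and 8 of 29 members were at least 2-fold lower and 2 higher. Fads2, a fatty acid desaturase, read 5.71 in the array labelled Miz1 kd, 9.40 in Hmhi EGF, 10.60 in MYC-TA EGF and 8.47 in Hmhi starved. Hmgcs1, which makes the HMG-CoA used for cholesterol, read 9.32, 10.38, 10.40 and 11.38 in that order. Idi1, an isomerase of the same pathway, read 7.43 in the array labelled Miz1 kd, 8.58 in Hmhi EGF, 8.63 in MYC-TA EGF and 9.63 in Hmhi starved. In all 3 genes the array labelled Miz1 kd was the lowest of the 4. Fdps, Hsd17b7, Cyp51, Mvd and Sc5d, enzymes of the mevalonate and sterol steps, differed by -1.47 to -1.12. Srebf1, a transcription factor of lipid synthesis, was higher by 1.12, and Elovl6, which elongates fatty acids, by 1.05. A sterol element with the letters TCACNCCAC was found for 1 of the 22 members with a window (4.5%) and for 1.43% of all genes. That member was Hmgcs1, whose window lies at chr13:119690101-119690400 on the plus strand of GRCm38.p6, shown with the element and the 2 bases before it in capitals.
Hmgcs1: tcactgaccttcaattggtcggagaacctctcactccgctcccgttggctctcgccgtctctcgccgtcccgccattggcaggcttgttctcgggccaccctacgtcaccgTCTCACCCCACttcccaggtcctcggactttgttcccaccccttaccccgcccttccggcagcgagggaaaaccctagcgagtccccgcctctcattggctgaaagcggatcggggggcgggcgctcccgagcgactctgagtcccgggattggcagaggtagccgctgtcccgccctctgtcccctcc
The capitals begin 139 bases before the start.

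Apolipoproteins and lipid efflux genes were led by Apoe and showed a median of 0.42, and 5 of 12 members were at least 2-fold higher and 1 lower. Abca1, the cholesterol exporter, read 11.39 in the array labelled Miz1 kd, 11.73 in Hmhi EGF, 11.61 in MYC-TA EGF and 9.64 in Hmhi starved. Abca8a, another transporter of the ABC family, read 10.83, 10.92, 7.56 and 8.78 in that order, so MYC-TA was lowest. Apobec1, an editing enzyme of apolipoprotein B mRNA, and Apoc1 were higher by 1.88 and 1.52, and Apod, a lipocalin, differed by -1.27 on its brightest set, whose 15.12 in Hmhi starved was the highest deposited value, and by -4.18 on its other set.

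Lysosomal genes showed a median of 0.57, and 6 of 30 members were at least 2-fold higher and 0 lower. Npc1, the cholesterol transporter of lysosomes, read 11.82 in the array labelled Miz1 kd, 11.54 in Hmhi EGF, 10.66 in MYC-TA EGF and 10.25 in Hmhi starved. Grn, progranulin, Gaa, acid glucosidase, and Psap, prosaposin, were higher by 1.49, 1.46 and 1.20. The E-box CACGTG, bound by MYC and by MITF family factors, was found for 11 of 26 lysosomal genes with a window (42.3%), against 8.09% of all genes. It was present for 2 of 5 higher members with a window, Gaa and Naglu, and for 9 of 21 others. The Gaa window, chr11:119267713-119268012 on the plus strand of GRCm38.p6, is shown as the higher member with the larger difference, with the E-box in capitals.
Gaa: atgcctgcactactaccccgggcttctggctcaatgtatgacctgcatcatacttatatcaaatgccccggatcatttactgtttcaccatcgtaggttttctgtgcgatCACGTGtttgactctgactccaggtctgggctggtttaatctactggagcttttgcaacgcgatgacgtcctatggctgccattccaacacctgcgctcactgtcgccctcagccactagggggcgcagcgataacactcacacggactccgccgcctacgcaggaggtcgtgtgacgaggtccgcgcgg
The same letters were found for 6 of 25 ribosome biogenesis and MYC-activated genes and for 2 of 10 melanosome genes, and for 0 members of those lists that were 2-fold apart.

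Pigment genes did not share a direction. Genes of melanin synthesis and the melanosome showed a median of -0.24, and 3 of 17 members were at least 2-fold higher and 2 lower. Oca2, a melanosomal membrane protein, read 10.09 in the array labelled Miz1 kd, 9.36 in Hmhi EGF, 6.21 in MYC-TA EGF and 8.29 in Hmhi starved. Slc45a2, a melanosomal transporter, read 9.70, 9.67, 6.97 and 8.05 in that order, again lowest in MYC-TA. Slc7a11, the cystine importer, read 7.90 in the array labelled Miz1 kd, 7.37 in Hmhi EGF, 7.22 in MYC-TA EGF and 5.21 in Hmhi starved. Rab32, a GTPase of melanosome transport, differed by -1.91 and Mlana, a melanosomal membrane protein, by -1.09. Tyrp1 differed by -0.28 on its brightest set, and its 3 sets past the filter ranged from -1.02 to -0.28. Melanocyte lineage factors had a median of -0.17, with 1 of 16 higher and 2 lower. Mc1r, the melanocortin receptor, read 10.37 in the array labelled Miz1 kd, 9.92 in Hmhi EGF, 9.01 in MYC-TA EGF and 8.41 in Hmhi starved. Id3, Snai2 and Mitf differed by -4.05, -1.05 and -0.85, and Sox10 by 0.14. Of 10 neural crest and Schwann cell markers, 4 were at least 2-fold higher and 1 lower, with a median of 0.15. Bcan, a proteoglycan, read 8.42 in the array labelled Miz1 kd, 10.61 in Hmhi EGF, 11.35 in MYC-TA EGF and 7.17 in Hmhi starved, and Pmp22, a myelin protein, differed by -1.48.

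Genes of mitosis showed a median of 0.64, and 8 of 31 members were at least 2-fold higher and 1 lower. Mki67, the proliferation marker, read 12.01 in the array labelled Miz1 kd, 11.97 in Hmhi EGF, 12.30 in MYC-TA EGF and 10.44 in Hmhi starved. Cenpf and Nuf2, kinetochore proteins, were higher by 1.45 and 1.41. Anln, anillin, read 10.60 in the array labelled Miz1 kd, 11.49 in Hmhi EGF, 12.11 in MYC-TA EGF and 11.74 in Hmhi starved and was the member at least 2-fold lower. S phase and replication genes had a median of 0.30, with 5 of 31 higher and 0 lower. Prim1, the primase subunit, read 11.58 in the array labelled Miz1 kd, 11.21 in Hmhi EGF, 10.96 in MYC-TA EGF and 9.26 in Hmhi starved. Tk1, Pole, Cdt1 and Tyms were higher by 1.39, 1.35, 1.30 and 1.05, and Uhrf1, at 0.998, was just under the 2-fold threshold. An E2F site, TTTNGCGC, was found for 38.5% of 26 S phase genes and for 3.8% of 26 mitosis genes with a window, against 1.57% of all genes. Among S phase members with a window, it was found for 1 of 4 higher ones, Cdt1, and for 9 of 22 others. Nuclear lamina and chromatin genes had a median of 0.58, with 5 of 21 higher and 0 lower, led by Hmga2, a chromatin protein, at 2.51 and Lbr, the lamin B receptor, at 1.75.

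Cell cycle inhibitors and senescence genes showed a median of 0.32, and 2 of 15 members were at least 2-fold higher and 0 lower. Cdkn1a, the inhibitor p21, read 9.49 in the array labelled Miz1 kd, 10.29 in Hmhi EGF, 10.11 in MYC-TA EGF and 8.12 in Hmhi starved. It was lowest in the starved array and lower in the array labelled Miz1 kd than in both other EGF arrays. Targets of p53 had a median of -0.14, with 3 of 20 higher and 2 lower, among them Gadd45a, a growth arrest gene, at 1.76 and Ccng1, cyclin G, at -1.23. Secreted factors associated with senescence had a median of 0.37, with 3 of 15 higher and 2 lower. Ccl5, a chemokine, read 9.97 in the array labelled Miz1 kd, 10.63 in Hmhi EGF, 9.91 in MYC-TA EGF and 7.98 in Hmhi starved. Igfbp2, a binding protein of insulin-like growth factors, read 4.86, 7.95, 10.04 and 8.26 in that order, lowest in the array labelled Miz1 kd, and Igfbp3, of the same family, read 10.63 in the array labelled Miz1 kd, against 13.38 in Hmhi starved.

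The MYC, MAX and MXD network with Miz-1 showed a median of 0.16, and 1 of 15 members were at least 2-fold higher and 2 lower. Trrap, a cofactor of MYC, was higher by 1.02. Mycn, given above, differed by -5.75 on its brightest set and by 1.28 on a second set past the filter. Mxi1, an antagonist of MYC, read 8.88 in the array labelled Miz1 kd, 9.30 in Hmhi EGF, 10.42 in MYC-TA EGF and 10.04 in Hmhi starved, and Max, the partner of MYC, differed by -0.92. Genes that MYC represses with Miz-1 or that Miz-1 binds had a median of -0.13, with 1 of 16 higher, Cdkn1a, and 1 lower, Cebpd. Cebpd, a bZIP factor, read 11.08 in the array labelled Miz1 kd, 10.36 in Hmhi EGF, 10.03 in MYC-TA EGF and 12.77 in Hmhi starved, with a second set at -0.38. Ribosome biogenesis and MYC-activated genes showed a median of -0.03, and 0 of 31 members were higher and 1 lower, Nop16, at -1.26. The shares of both lists were under those of all genes.

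Genes of the ATF4 and ER stress response showed a median of 0.73, and 10 of 26 members were at least 2-fold higher and 1 lower. Trib3, a pseudokinase that ATF4 induces, read 11.04 in the array labelled Miz1 kd, 10.86 in Hmhi EGF, 10.91 in MYC-TA EGF and 8.88 in Hmhi starved. Vldlr, a lipoprotein receptor, read 11.89, 12.27, 11.97 and 9.36 in that order. Slc7a5, which imports large neutral amino acids, read 12.96 in the array labelled Miz1 kd, 12.78 in Hmhi EGF, 12.73 in MYC-TA EGF and 11.11 in Hmhi starved. These 3 genes stood at about the same level on the 3 EGF arrays. Slc7a1, Asns, Ddit3 and Slc3a2 were higher by 1.498, 1.29, 1.23 and 1.16, and Psat1, of serine synthesis, differed by -1.08. Transsulfuration and methionine cycle genes had a median of -0.26, with 1 of 14 higher and 2 lower. Shmt2, of mitochondrial serine metabolism, was higher by 1.29. Tst and Mpst, sulfurtransferases that are neighbours on the genome, differed by -1.82 and -1.15. Glutathione and NRF2 genes had a median of -0.14, with 2 of 26 higher, Slc7a11 and Akr1b8, and 4 lower, Sod2, Gpx1, Gpx8 and Gstm2. Glycolysis and hypoxia genes had a median of 0.07, with 3 of 18 higher, led by Pfkfb3 at 1.79, and 1 lower, Bnip3 at -1.08.

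Genes of the type I interferon response went both ways, with a median of 0.13. Of 31 members, 7 were higher at least 2-fold and 5 lower at least 2-fold. Bst2, a tethering factor for viruses, read 11.20 in the array labelled Miz1 kd, 12.24 in Hmhi EGF, 12.11 in MYC-TA EGF and 8.98 in Hmhi starved. Ifit3, which binds foreign RNA with its relatives, read 8.77, 10.38, 9.97 and 10.29 in that order. The array labelled Miz1 kd was below both other EGF arrays for both genes, and only for Ifit3 was it also below the starved array. Lgals3bp, a secreted glycoprotein, was higher by 2.51, Rsad2, viperin, by 1.76, Usp18, a protease of ISG15, by 1.74 and Ifitm3, a membrane protein against virus entry, by 1.61. Ifit2 and Zbp1, a sensor of Z-form nucleic acids, differed by -1.78 and -1.55, and a second Zbp1 set by -0.26. Genes of MHC class I presentation had a median of 0.54, with 4 of 13 higher and 0 lower. The higher count depended on the setting, with 1 of 12 for the mean of all sets and 4 of 11 under the stricter filter. Tap1, a peptide transporter, read 9.42 in the array labelled Miz1 kd, 10.66 in Hmhi EGF, 10.00 in MYC-TA EGF and 7.55 in Hmhi starved, and its second set differed by 0.09.

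The core of the interferon-stimulated response element, GAAA followed by any 2 bases and GAAA, was found for 10 of 22 genes of the interferon list with a window (45.5%), against 3.99% of all genes. It was found for 4 of 6 higher members that had a window, 2 of 4 lower members and 4 of 12 others. The windows of Bst2 and Ifit3 are shown as a higher and a lower member that both hold it, with the element in capitals (read as its reverse complement in Ifit3). They lie at chr8:71537423-71537722 on the minus strand and chr19:34583279-34583578 on the plus strand of GRCm38.p6.
Bst2: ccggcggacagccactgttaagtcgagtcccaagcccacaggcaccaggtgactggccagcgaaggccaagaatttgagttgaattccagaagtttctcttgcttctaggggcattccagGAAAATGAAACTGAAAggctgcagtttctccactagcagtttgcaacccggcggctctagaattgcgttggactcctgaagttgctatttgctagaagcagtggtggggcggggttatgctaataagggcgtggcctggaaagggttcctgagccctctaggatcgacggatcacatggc
Ifit3: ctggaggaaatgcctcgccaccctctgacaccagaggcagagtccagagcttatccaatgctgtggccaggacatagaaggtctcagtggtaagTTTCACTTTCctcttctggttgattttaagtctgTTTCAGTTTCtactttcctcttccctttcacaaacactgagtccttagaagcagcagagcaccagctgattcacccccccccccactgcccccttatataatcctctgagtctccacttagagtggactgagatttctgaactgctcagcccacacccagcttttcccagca
Each window held 2 matches, which overlap in Bst2 and are apart in Ifit3.

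Metalloproteinases and their inhibitors showed a median of 0.72, and 7 of 18 members were at least 2-fold higher and 0 lower. Adam12, a disintegrin metalloproteinase, read 9.90 in the array labelled Miz1 kd, 10.64 in Hmhi EGF, 10.35 in MYC-TA EGF and 5.98 in Hmhi starved. Mmp11, stromelysin 3, read 8.10, 7.12, 6.70 and 5.47 in that order and was highest in the array labelled Miz1 kd. Adam19, Adamts4, Adamts1 and Mmp2 were higher by 2.56, 1.96, 1.91 and 1.26. An AP-1 site, TGANTCA, was found for 1 of 11 members of this list with a window, Adam19, for 0 of 13 of the ERK feedback list and for 8.97% of all genes. Integrins and cadherins had a median of 0.32, with 7 of 25 higher and 1 lower. Itgb3, the integrin beta 3 chain, read 10.15 in the array labelled Miz1 kd, 10.17 in Hmhi EGF, 9.50 in MYC-TA EGF and 7.31 in Hmhi starved. Itga7, a laminin receptor chain, was higher by 2.51, Mcam, an adhesion molecule of melanoma, by 2.15 and Cd44, the hyaluronan receptor, by 1.80. Collagens and other matrix genes were split, with a median of -0.07, 5 of 22 higher and 5 lower. Loxl1, which crosslinks elastin, was higher by 2.80 on its brightest set and by 0.43 on the other set past the filter. The brightest read 8.83 in the array labelled Miz1 kd, 9.26 in Hmhi EGF, 7.88 in MYC-TA EGF and 6.03, under the array median, in Hmhi starved. Mgp, matrix Gla protein, read 9.70, 12.28, 14.58 and 11.07 in that order, lowest in the array labelled Miz1 kd.

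Genes of TGF-beta and BMP signalling showed a median of 0.24, and 4 of 20 members were at least 2-fold higher and 2 lower. Ltbp1, which holds latent TGF-beta in the matrix, read 10.71 in the array labelled Miz1 kd, 11.23 in Hmhi EGF, 10.73 in MYC-TA EGF and 6.97 in Hmhi starved. Tgfbi, a matrix protein that TGF-beta induces, read 7.19, 8.56, 10.46 and 5.001 in that order. Fst, follistatin, an inhibitor of activins, differed by -2.83. WNT genes had a median of 0.15, with 2 of 19 higher, Fzd7 at 1.99 and Wnt6 at 1.62, and 4 lower, led by Tcf7l2 at -1.83. Wnt10a read 10.48 in the array labelled Miz1 kd, 8.82 in Hmhi EGF, 5.92 in MYC-TA EGF and 11.54 in Hmhi starved.

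Ligands and receptors of chemokines, interleukins and TNF showed a median of 0.67, and 7 of 18 members were at least 2-fold higher and 1 lower. Members at least 2-fold higher were 3 of 15 with the mean of all sets and 5 of 10 under the stricter filter. Ccl9, a chemokine, read 10.49 in the array labelled Miz1 kd, 10.97 in Hmhi EGF, 9.004 in MYC-TA EGF and 7.93 in Hmhi starved. Il4ra, the receptor for interleukin 4, and Ccl6 were higher by 1.96 and 1.39, and Il18 differed by -1.85. Among macrophage markers, Csf1r, the receptor for macrophage growth factor, read 6.87 in the array labelled Miz1 kd, against 9.41 in Hmhi starved, while Cd68, a lysosomal protein, read 8.05 and 6.55. Complement genes, 7 past the filter, had 2 higher and 2 lower, with Masp1, a protease of the lectin pathway, at 6.08 in the array labelled Miz1 kd, 10.36 in Hmhi EGF, 11.21 in MYC-TA EGF and 9.41 in Hmhi starved. Retinoid genes and secreted carriers, 8 past the filter, had 2 higher and 2 lower, with a median of 0.20. Lcn2, lipocalin 2, read 7.60 in the array labelled Miz1 kd, 12.08 in Hmhi EGF, 10.79 in MYC-TA EGF and 5.33 in Hmhi starved, so the array labelled Miz1 kd lay between the starved array and the other 2.

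**Figure D3:**
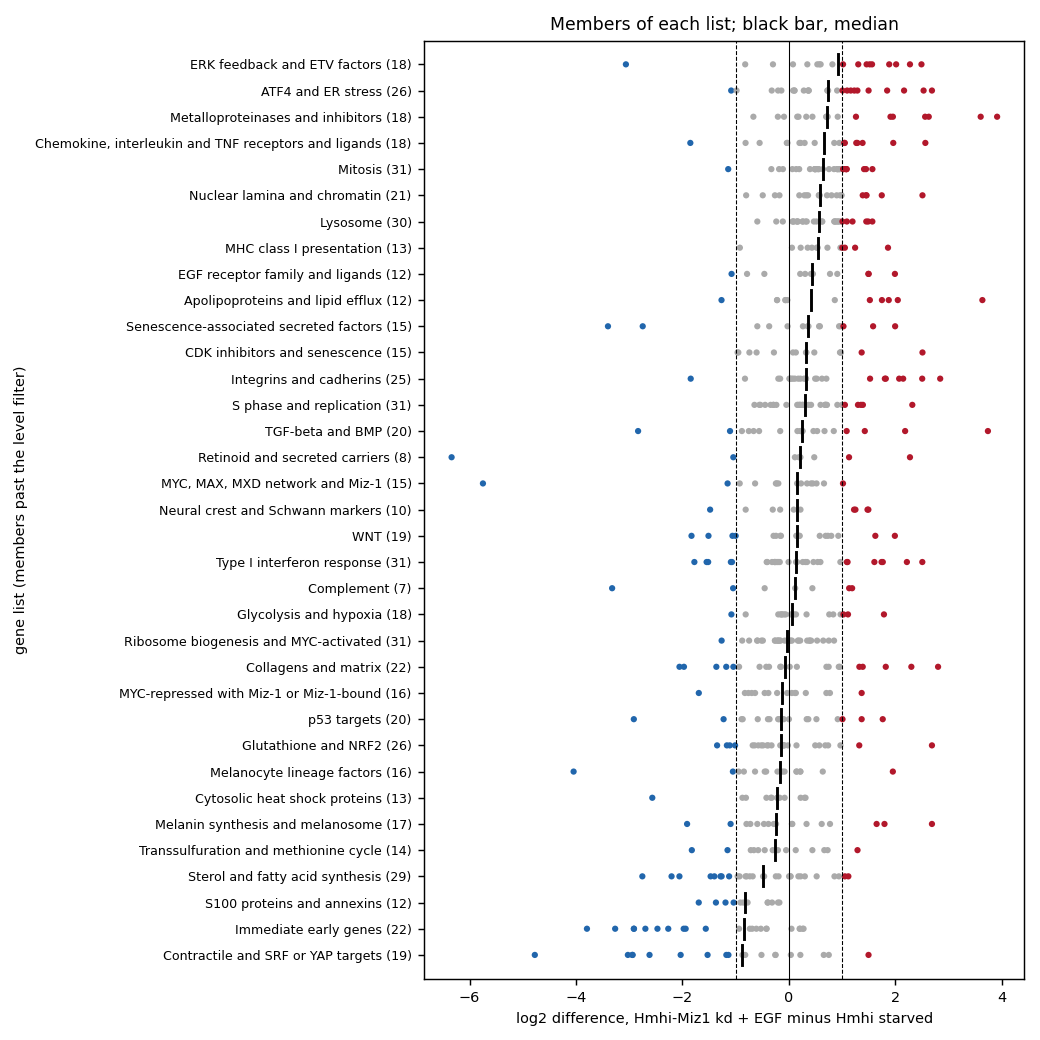
Log2 difference between the array labelled Hmhi-Miz1 kd + EGF and Hmhi starved for every member past the level filter of the 35 lists (rows, number of members in brackets), sorted by median (black bar). Red and blue points are members at least 2-fold higher and lower; the ERK feedback list is at the top with a median of 0.92 and the contractile list at the bottom with -0.87.

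The size of the differences varied with the chromosome, a pattern chosen for description after the values were seen. Over 11432 genes with a chromosome, the median difference was -0.28 on chromosome 13, -0.23 on 12, -0.21 on 19 and -0.16 on 16, against 0.21 on 18, 0.15 on 10 and 0.14 on 6 at the other end. On chromosome 13, 68.2% of 418 genes were below 0, with 63 at least 2-fold lower (15.1%) and 14 higher (3.3%). On the 4 chromosomes of lowest median together, 213 of 1598 genes were at least 2-fold lower, which is 13.3%, against 6.46% of genes elsewhere. Higher genes made up 4.19% there and 7.97% elsewhere. The lower medians were spread along chromosome 13, whose genes, split into 4 stretches of equal number, had medians of -0.38, -0.22, -0.26 and -0.30. On chromosome 19 the stretches had -0.05, -0.19, -0.36 and -0.35. Relative to the same starved array, the medians in Hmhi EGF were -0.10, -0.05, 0.02 and -0.03 for chromosomes 13, 12, 19 and 16, and those in MYC-TA EGF were 0.12, 0.14, 0.42 and 0.09. Aldh1a1, Acta2, Ankrd1, Fads2, Ifit2 and Ifit3 lie on chromosome 19, and Hmgcs1 and Idi1 on 13. All were at least 2-fold lower, so their differences were bound to be larger in size than the chromosome medians. The part of the chromosome in these differences was not tested. Subtracting each chromosome's median left 807 genes at least 2-fold higher and 812 lower. The largest of these medians in size was the -0.28 of chromosome 13. The step therefore could not move a list median by more than the technical SD, and is no test of the lists.

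**Figure D4:**
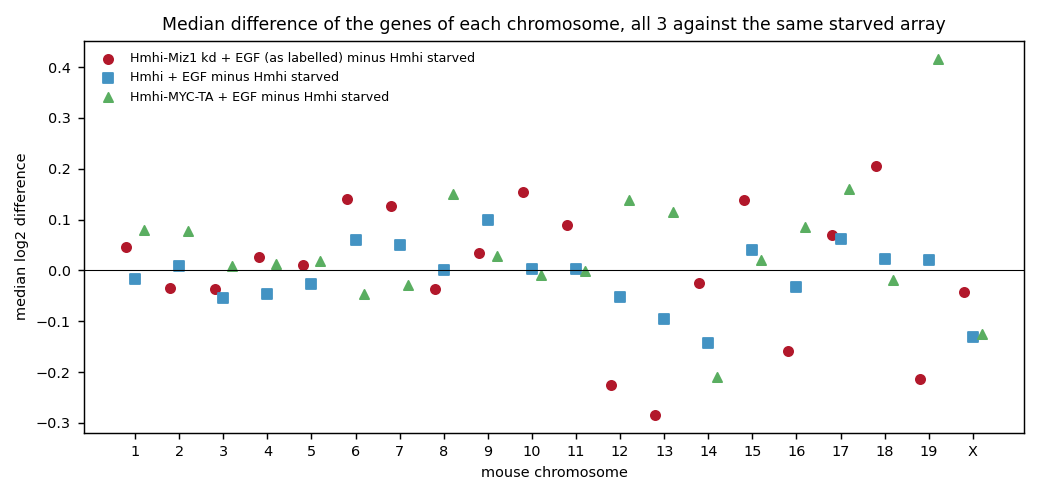
Median log2 difference from the Hmhi starved array of the genes on each mouse chromosome, for the arrays labelled Hmhi-Miz1 kd + EGF (red circles), Hmhi + EGF (blue squares) and Hmhi-MYC-TA + EGF (green triangles), which share the starved array. The red circles of chromosomes 12, 13, 16 and 19 lie between -0.28 and -0.16, and the green triangle of chromosome 19 lies at 0.42.

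A comparison that shares no array with this one is MYC-TA EGF minus Hmhi EGF. It put 150 of 11534 genes at 2-fold higher or more (1.3%) and 190 at 2-fold lower or more (1.65%). Across the 11184 genes past the filter in both comparisons, the 2 differences had a Pearson r of -0.474 and a Spearman rho of -0.459. Genes are not independent replicates, and the value describes these 4 arrays. Outside the 4 chromosomes of lowest median r was -0.464, over 9601 genes. Of the genes at least 2-fold higher in the array labelled Miz1 kd than in the starved one, 108 were at least 2-fold lower in MYC-TA EGF than in Hmhi EGF, which is 12.66% of the 853 and 56.8% of the 190, and 6 were at least 2-fold higher. Of the lower genes, 61 stood 2-fold or more higher in MYC-TA EGF, which is 7.18% of the 850 and 40.7% of the 150, and 5 were lower. Acta2, Ankrd1, Fads2, Mxi1 and Psat1 were among the 61 and lie on chromosome 19. The median of all genes on that chromosome was -0.21 here and 0.41 in MYC-TA EGF minus Hmhi EGF. The part of this chromosome-wide difference in the overlap was not tested. Without a fold threshold, 690 of 838 higher genes (82.3%) and 153 of 775 lower genes (19.7%) had a negative difference in MYC-TA, against 45.4% of all genes.

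Apoe was among the 108, with 12.16 in the array labelled Miz1 kd, against 8.52 in Hmhi starved, and 8.13 in MYC-TA EGF and 12.05 in Hmhi EGF. Rapgef3, Sorcs2, Islr, Oca2, Abca8a, Ncam1 and Ccl9 were others. Cnn1, Acta2, Ankrd1, Kcna1, Slit2 and Igfbp2 were among the 61. The 6 genes higher in both were Tcim, Tgfbi, Nup210, Msln, Aldh18a1 and Exo1, and the 5 lower in both were Aldh1a1, Wnt10a, Bpifb9b, Stum and Grap, of which those outside the named genes were listed after their values were seen. The bacterial poly-A transcripts added before labelling also differed between the arrays. Their median level was 7.07 in the array labelled Miz1 kd, 7.39 in Hmhi EGF, 7.70 in MYC-TA EGF and 7.69 in Hmhi starved, and 24 of 24 of their sets read lower than in the starved array, with a median difference of -0.53. Their part in the result was not tested. The difference in signal between 3' and 5' sets was 0.74 in the array labelled Miz1 kd, against 0.66 in Hmhi starved for beta-actin, and -0.40 and -0.22 for Gapdh.

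**Figure D5:**
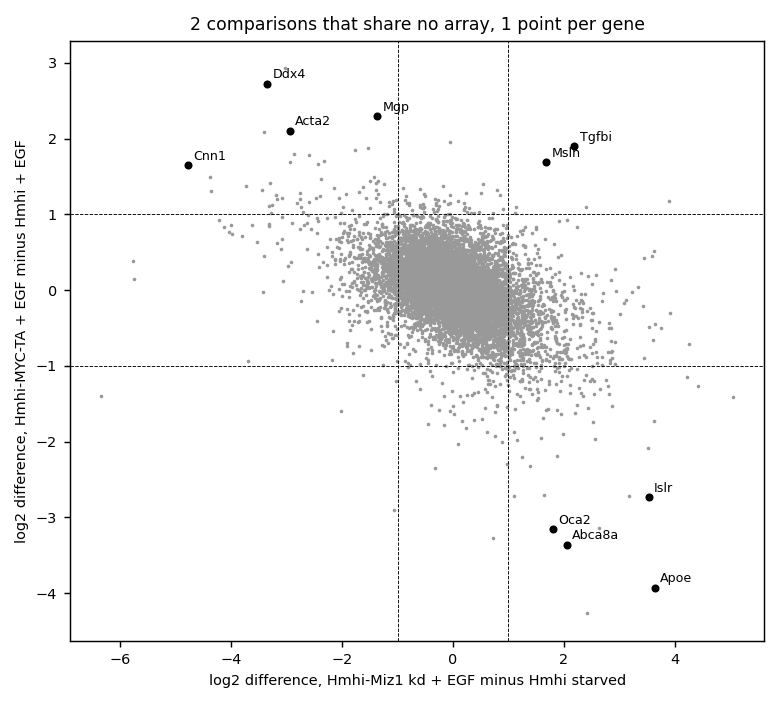
Log2 difference of Hmhi-MYC-TA + EGF minus Hmhi + EGF (vertical axis) against that of the array labelled Hmhi-Miz1 kd + EGF minus Hmhi starved (horizontal axis), 1 point for each of 11184 genes, with dashed lines at 2-fold. The cloud slopes downward (Pearson r of -0.474), with Apoe at the lower right, Cnn1 and Acta2 at the upper left and Tgfbi and Msln at the upper right.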

How the data were processed

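The authors' deposited table held 1 column of values for each of 4 arrays (Affymetrix mouse expression arrays with 45101 probe sets). The range of the deposited values, 2.94 to 15.12, was read as that of log2 signals. The log base, summarization and normalization are not given in the sources used here. Once sorted, the columns differed by at most 0.004, so they had been brought to 1 distribution before deposit, which hides any shift common to all genes. Per the labels' protocols, 100 ng of total RNA was turned into biotinylated cRNA. The platform annotation of 2016 gave 1 symbol for 34945 probe sets, several for 932 and none for 9160, beside 64 control sets. Entrez identifiers of 34741 sets matched the RefSeq table and 0 symbols changed.

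A gene was its probe set of highest mean over the 4 arrays, and entered if its level on the brighter of the 2 arrays reached the median of the non-control sets there. Genes at least 2-fold apart were counted. With 1 array per condition, no test was possible, precision is limited by the number of arrays, and 97 gene models past 2-fold (RIKEN, Gm and the like) were not named. Named genes were the 20 largest positive and 20 largest negative differences of 1 sign in every set past the filter, up to 6 members per list with the largest differences, further members that describe a list's spread, and Zbtb17, Myc, Mycn, Cth and Lcn2. The genes compared, the lists and these rules were chosen with earlier results of these data known.

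Promoter windows came from a RefSeq table of GRCm38.p6 (32851 windows of 300 bases), searched on both strands. Other settings tried were quantile normalization, equal array medians, a loess correction (span 0.4), a stricter filter (75th percentile) or none, averaging a gene's sets, plain _at sets alone, a 3-fold threshold and, added after the chromosome medians were seen, subtraction of those medians. The step from probe sets to genes was run on simulated arrays. All sets of a changed gene moved by the same amount there and the changed genes were bright. Discordant sets and dim genes were therefore not tested. The software was matplotlib 3.10.9, statsmodels 0.14.6, scipy 1.17.1, numpy 2.4.6 and pandas 2.3.3, run in Python 3.11.15.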

Additional observations from a re-analysis of the deposited data

Results flagged for a closer look

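The 3 probe sets for 18S ribosomal RNA, controls outside the gene comparison, read higher on the array labelled Miz1 kd than on that of Hmhi starved; the median difference was 0.525 and the range 0.04 to 0.61. Their median level was 12.86 in the array labelled Miz1 kd, 13.09 in Hmhi EGF, 12.88 in MYC-TA EGF and 12.25 in Hmhi starved. They drew attention as a signal in data that no comparison used. The hybridization controls, added after labelling, differed by a median of 0.13, and the sets for B1 and B2 repeats by 0.25.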

How the results depend on the processing

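The counts of 853 higher and 850 lower genes moved by less than 1.5 times under the loess correction and both other filters. The same held for both other probe set rules and for subtraction of chromosome medians. The number of genes that entered changed with the filter. With no filter 880 of 18193 genes were higher and 891 lower, and under the stricter filter 644 of 7491 were higher and 581 lower. At 3-fold the counts were 294 higher and 270 lower of 11455 genes. A common median and quantile normalization were applied to columns that already had 1 distribution. These rescalings could change little and are no test of the counts. The medians of all 35 lists moved by less than the technical SD of 0.42 under the loess correction and the mean of all sets. Both rescalings and subtraction of chromosome medians could not move a list median that far, so those steps are no test of the medians. With no level filter the chemokine, interleukin and TNF list had a median of 0.25 and the S100 and annexin list -0.356. Under the stricter filter, at the 75th percentile, the immediate early list had -1.562, the complement list -0.455, the ERK feedback list 0.597, the apolipoprotein list 1.306 and the collagen list 0.727. With only plain _at sets the complement list had 0.602 and the apolipoprotein list 0.863. The cause of these moves was not tested, though each filter changes which members enter. Of 237 genes followed, 161 kept their value within the technical SD under every alternative that gave one, 74 moved by more and 2 gave the opposite sign, Cryab (0.123) and Lrig1 (-0.095), both with only plain _at sets. Their plain _at sets did not pass the level filter, so these values are readings near background. No paired analysis was possible because there was a single array per condition, and leaving out an array was not possible for the same reason. Signals under the array median limit the folds of dim genes.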

Other observations

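Some genes at least 2-fold apart in the same direction were neighbours on the genome, with no other gene past the filter between them. Ccl5, Ccl9 and Ccl6, chemokines on chromosome 11, were higher by 1.997, 2.56 and 1.39 in the array labelled Miz1 kd than in Hmhi starved, together with the adjacent Taf15, within 114 kb. Ifit2, Ifit3 and Ifit1bl1, interferon-induced genes on chromosome 19 within 42 kb, differed by -1.78, -1.52 and -3.42. Anxa1, Aldh1a1 and Aldh1a7, on the same chromosome, were lower together within 319 kb. Elobl lay in a run of 3 lower genes with 2210409E12Rik and Coil within 9 kb on chromosome 11. Mmp2, Lpcat2 and Capns2 were higher together within 74 kb on chromosome 8, as were Sort1, Psrc1 and Celsr2 within 106 kb on chromosome 3. These runs were listed after the values were seen, members of a family can share probes, and no comparison with runs among other genes was made.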
